A study of Mus musculus with 4 samples.

Results

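Tph2, Slc6a4, Fev and Maob, 4 of the 32285 genes counted, were chosen by name as genes of serotonin neurons and followed through every neuronal cluster and cell type of the posterior mouse hindbrain. The data were single-nucleus RNA sequencing of a piece of hindbrain that holds the area postrema (AP) and the nucleus tractus solitarius (NTS), with 39461 nuclei that passed the study's quality filter, of which 12539 were neurons in 134 clusters. Control mice, labelled wild type and described in the methods as carrying the hM3DGq fl/- and hM4DGi fl/- alleles without a recombinase, were compared with AgRP-Gq;POMC-Gi mice that carried AgRP-IRES-Cre+/- with hM3DGq fl/-, and POMC-Dre+/- together with hM4DGi fl/-, called DREADD mice below after their designer receptors. In them Cre and Dre, driven from the AgRP and POMC genes, switched on an activating receptor (hM3DGq) in AgRP neurons and an inhibiting receptor (hM4DGi) in POMC neurons. AgRP neurons lie in the arcuate nucleus of the hypothalamus, outside the sequenced piece, and POMC cells are known in the arcuate nucleus and the NTS. Both groups were of both sexes and 12 to 20 weeks old, and both received the receptor ligand clozapine-N-oxide (CNO) at 3 mg per kg intraperitoneally 1 h before tissue was taken, without food. Each group had 2 libraries. The methods give 2 mice per group with samples of a condition pooled, and do not say whether each library is 1 mouse. Every spread and p-value below therefore measures the spread between libraries, which may be partly technical. The libraries held 9723 to 10051 nuclei and 48904976 to 53089402 UMIs (unique molecular identifiers, each standing for a captured RNA molecule), and shared 19 to 36 cell barcodes per pair. Xist, the RNA of the inactive X chromosome, had 507 and 319 UMIs per 1e+06 UMIs in neurons of control replicates 1 and 2. In DREADD replicates 1 and 2 it had 541 and 16.2, so these 2 libraries differed in their makeup by sex. The part of sex in the comparisons between the groups was not tested.

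Serotonin neurons of the hindbrain lie in the raphe nuclei and neighbouring reticular formation and project through brain and spinal cord. They hydroxylate tryptophan with tryptophan hydroxylase 2 (Tph2), which sets the pace of synthesis, decarboxylate the product with Ddc, load serotonin into vesicles with the vesicular monoamine transporter Slc18a2 and take it back up with the serotonin transporter Slc6a4. Fev, also known as Pet-1, is an ETS-family transcription factor that switches these genes on in development and keeps them on in the adult, and Maob is a monoamine oxidase of the outer mitochondrial membrane that breaks down amines in serotonin neurons and in glia.

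In the GENCODE M21 annotation of GRCm38 the 4 genes are protein coding and lie on 4 chromosomes. Tph2 spans chr10:115078641-115185022 on the minus strand, Slc6a4 chr11:76998603-77032340 on the plus strand, Fev chr1:74881509-74885419 on the minus strand and Maob chrX:16709282-16817366 on the minus strand. Fev is the shortest at 3911 bases, against 33738 for Slc6a4, 106382 for Tph2 and 108085 for Maob. Because counts of nuclear RNA depend on a gene's length and on where its reads fall, levels are compared below between cells and not between genes. Slc6a4 overlaps Gm12343 on the opposite strand, while no other counted gene overlaps Tph2, Fev or Maob. RefSeq promoters of GRCm38.p6, from 250 bases before to 50 after the start of the gene, were matched for 3 of the 4 genes, and are shown because Fev is itself a DNA-binding factor and the genes were counted together in the same nuclei. They are written 5′ to 3′ on the strand of the gene, with capitals for matches on either strand. The letters searched were GGAAG for the core bound by ETS factors, with CCGGAA as a longer form of it, TGATAA as one site of the GATA factors, AGATAA as another of their sites, TAATTA for homeodomain factors, and TATAAA for the promoter element of that name.
Tph2, chr10:115184973-115185272: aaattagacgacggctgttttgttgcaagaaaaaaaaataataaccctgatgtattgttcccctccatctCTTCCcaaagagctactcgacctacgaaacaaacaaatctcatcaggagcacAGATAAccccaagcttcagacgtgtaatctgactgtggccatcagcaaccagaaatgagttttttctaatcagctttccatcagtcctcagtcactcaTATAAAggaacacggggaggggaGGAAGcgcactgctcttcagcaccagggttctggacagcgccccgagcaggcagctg
Slc6a4, chr11:76998347-76998646: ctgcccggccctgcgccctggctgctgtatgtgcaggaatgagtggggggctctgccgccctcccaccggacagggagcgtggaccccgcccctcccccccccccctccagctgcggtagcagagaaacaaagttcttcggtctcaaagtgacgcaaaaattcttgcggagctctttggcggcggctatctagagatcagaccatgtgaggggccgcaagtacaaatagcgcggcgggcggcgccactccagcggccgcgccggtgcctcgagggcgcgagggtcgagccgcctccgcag
Fev, chr1:74885359-74885658: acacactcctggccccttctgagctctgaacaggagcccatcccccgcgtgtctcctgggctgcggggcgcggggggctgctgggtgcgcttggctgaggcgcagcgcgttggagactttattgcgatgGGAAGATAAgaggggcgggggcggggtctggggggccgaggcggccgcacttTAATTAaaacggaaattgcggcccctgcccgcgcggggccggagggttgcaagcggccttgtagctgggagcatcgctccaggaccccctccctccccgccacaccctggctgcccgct

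The Tph2 promoter held a TATAAA that begins 30 bases before the start, an AGATAA 128 bases before it, and GGAAG at 180 bases before it on the opposite strand and 7 bases before it on the gene's own strand. The Fev promoter held a GGAAG and an AGATAA that share bases, beginning 121 and 118 bases before the start, and a TAATTA 69 bases before it. In the Slc6a4 promoter none of these letters occurred. Over 32851 promoters of the same length, GGAAG was found in 71.4% and its longer form in 14.9%. The first GATA site listed was found in 9.05% and the second in 11.2%, the homeodomain site in 5.29% and TATAAA in 13.6%. The windows differ in base composition, with 47.3% G or C in Tph2, 67.7% in Slc6a4 and 69.0% in Fev against a median of 52.7% over all promoters.

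The deposited labels of the nuclei used held 134 neuronal clusters, fewer than the paper counts. Across them, Tph2, Slc6a4, Fev and Maob all reached their highest mean in the same cluster, number 167, which the authors had labelled Tph2/Slc6a4. It is called the serotonin cluster below and was picked as the neuronal cluster with the highest mean Tph2 level. It held 43 nuclei, 22 and 5 of them from control and 11 and 5 from DREADD replicates 1 and 2, and 425771 UMIs. All 8 markers listed for serotonin neurons, Tph2, Slc6a4, Fev, Ddc, Slc18a2, Lmx1b, Gata2 and Gata3, had UMIs in it. A UMI alone tells little, since all 4 oligodendrocyte markers and all 4 markers of inhibitory neurons also had UMIs there. Of the 8, 5 had a level in every library above that of the remaining neurons in any library. These were Tph2 and Slc6a4, by which the cluster was picked or named, and Ddc, Slc18a2 and Lmx1b. The neuronal genes Snap25 and Syt1 were present in 93.0% and 90.7% of its nuclei. Of the catecholamine markers, Th and Slc6a2 had no UMI and Dbh had 1, and Tph1, the hydroxylase of the pineal gland and gut, had none. Clusters were built from expression, so levels between clusters are descriptions and were not tested.

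Tph2 was the enzyme gene with the clearest cluster. Its level there, in UMIs per 1e+06 UMIs of the same nuclei (CPM), was 1295 and 559 in control replicates 1 and 2 and 1682 and 1829 in DREADD replicates 1 and 2, a mean of 1341 ± 568 (SD, n = 4 libraries) from 560 UMIs. The next cluster, 159: Casr/Slc6a2, had 21.9 ± 28.0 CPM, and the lowest library of the serotonin cluster lay above its highest library. From there downward the library ranges of neighbouring clusters overlapped, and 96 of the 134 clusters had no Tph2 UMI. The serotonin cluster, with 0.343% of the neurons, held 89.3% of the Tph2 UMIs of all neurons.

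Slc6a4, which returns released serotonin to the cell, had 709 and 397 CPM in the control libraries and 1087 and 457 CPM in the DREADD libraries of the cluster (663 ± 314, SD, n = 4), from 316 UMIs. The 2 groups overlapped. The next cluster, number 183, reached 18.3 ± 22.6 CPM on 5 UMIs in 2 nuclei, below the lowest library of the serotonin cluster. No Slc6a4 UMI was found in 119 of the 134 clusters, and 93.5% of the neuronal Slc6a4 UMIs were in the serotonin cluster.

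Fev, the transcription factor, was sparse at this depth. Its 6 UMIs in the cluster gave 7.97, 18.0, 30.8 and 0 CPM in control replicates 1 and 2 and DREADD replicates 1 and 2 (14.2 ± 13.3, SD, n = 4), and the library ranges of the first and the second cluster in its order overlapped. The remaining 18 neuronal Fev UMIs were single UMIs in 18 nuclei of 17 clusters, so 25.0% of its neuronal UMIs were in the serotonin cluster. The order of clusters below the first therefore rests on 1 or 2 UMIs each.

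Maob, the oxidase, was high in the cluster and present at a low level in many others. It had 203 and 54.1 CPM in the control libraries and 154 and 183 CPM in the DREADD libraries (149 ± 66.2, SD, n = 4), from 73 UMIs. Cluster 129: Bnc2/Ebf2 followed with 34.9 ± 55.7 CPM, then 154: Olfr78/Calcr with 33.9 ± 46.1 and 153: Lmo3/Cpne4 with 26.7 ± 34.9, and the library ranges of these neighbours overlapped, that of the first cluster included. Maob had UMIs in 99 of the 134 clusters, with a median over clusters of 1.68 CPM, and 16.4% of its neuronal UMIs were in the serotonin cluster.

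**Figure D1:**
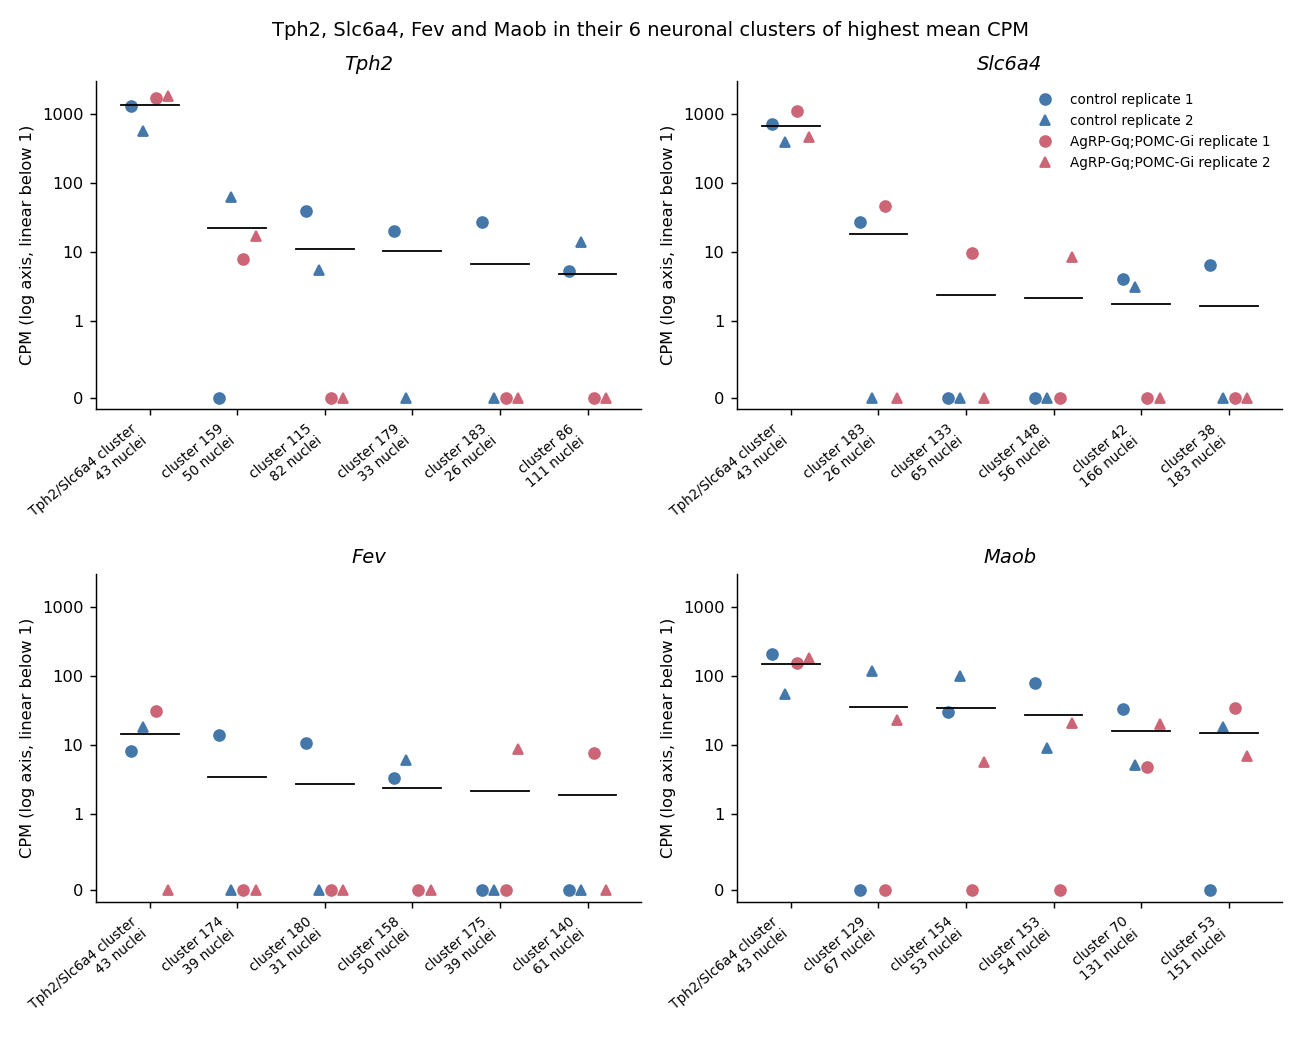
CPM of Tph2, Slc6a4, Fev and Maob (log axis, linear below 1) in the 6 neuronal clusters with the highest mean of each gene, 1 point per library and a line at the mean. The Tph2/Slc6a4 cluster is first for all 4 genes; its lowest library is at 559 CPM for Tph2 and 397 CPM for Slc6a4, above every library of the next cluster, while for Fev and Maob the ranges overlap.

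In single nuclei the genes were seen together, and mostly in nuclei of at least 4000 UMIs. A Tph2 UMI was found in 36 of the 43 nuclei (83.7%), Slc6a4 in 29 (67.4%), Maob in 30 (69.8%) and Fev in 5 (11.6%). In oligodendrocytes, which should lack Tph2, Slc6a4 and Fev, Tph2 was found in 24 of 16816 nuclei (0.143%), Slc6a4 in 21 and Fev in 5, with a median of 2460 UMIs per nucleus against 8275 in the cluster. Every nucleus of the cluster with Slc6a4, Fev or Maob also had Tph2. All 4 genes were seen in 4 nuclei, 3 of them in 23, 2 in 6 and 1 in 3, and 26 nuclei had Tph2, Slc6a4 and Maob together.

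The 7 nuclei with none of the 4 genes were spread over all libraries (2, 1, 1 and 3) and held 806 to 6837 UMIs, with a median of 1878, against a median of 10201.5 in the 36 nuclei with Tph2. Above 4000 UMIs, 35 of 36 nuclei had Tph2 (97.2%), 29 had Slc6a4 (80.6%) and 30 had Maob (83.3%). Below it, 1 of 7 had Tph2 and none had another of the 4 genes. DREADD replicate 2 had 3 of its 5 nuclei in this shallow range, and its 40 Tph2 UMIs came from 2 nuclei with 30 and 10. Ddc was found in 3 of the 7 nuclei and in 34 of the 36, and Slc18a2 likewise in 3 of 7 and 34 of 36. With each nucleus thinned to 2000 UMIs, 38 nuclei remained, of which 34 had Tph2 (89.5%), 26 Slc6a4 (68.4%), 12 Maob (31.6%) and 0 Fev.

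Tph2 ranged from 1 to 54 UMIs in the nuclei that had it, with a median of 13. The deepest nucleus of the cluster, in control replicate 2, had 37240 UMIs, 4.50 times the cluster's median and 67.1% of that library's UMIs in the cluster, with 19 Tph2 and 13 Slc6a4 UMIs. Without it, a choice made after seeing the data, control replicate 2 had 658 CPM of Tph2, still the lowest of the 4 libraries, and 493 CPM of Slc6a4.

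**Figure D2:**
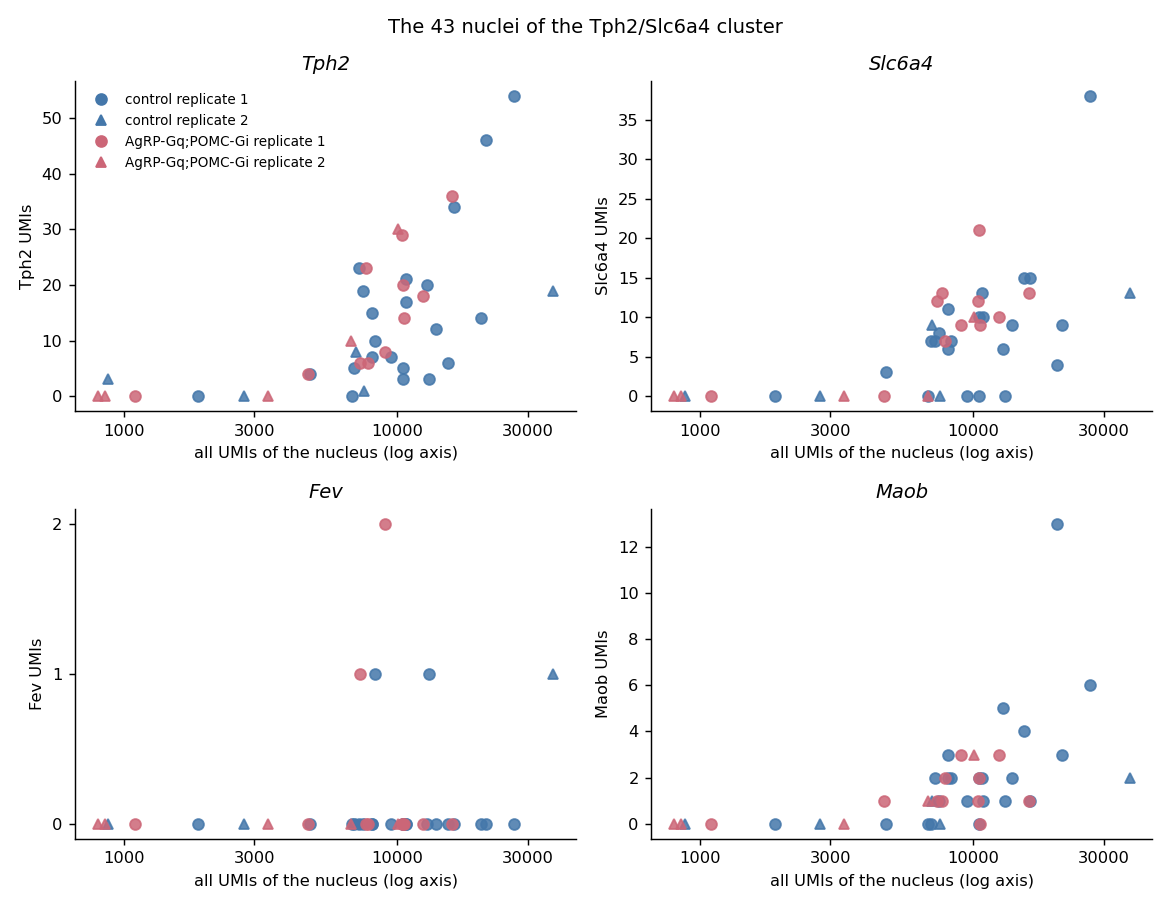
UMIs of each gene in the 43 nuclei of the Tph2/Slc6a4 cluster against all UMIs of the nucleus (log axis), 1 point per nucleus with colour for group and shape for replicate (the DREADD libraries bear their full name, AgRP-Gq;POMC-Gi). The nuclei without Tph2 are at the left, 6 of 7 of them below 4000 UMIs; Fev reaches 2 UMIs in 1 nucleus and 1 UMI in 4.

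Outside the cluster, the synthesis and transport genes were rare and seldom together. Among the other 12496 neurons, with a median of 8704 UMIs, 53 nuclei had Tph2 (0.424%), and 44 of them had 1 UMI. Slc6a4 was found in 17 nuclei and Fev in 18. Tph2 and Slc6a4 shared 2 of these nuclei, which is 3.77% of the nuclei with Tph2 and 11.8% of those with Slc6a4. Both were in control replicate 1: 1 nucleus of cluster 183 with 4 UMIs of each gene, and 1 of cluster 42: Mylk/Mctp2 with 39714 UMIs in all. Maob was found in 308 other neurons (2.46%), 263 of them with 1 UMI, and 2 of the 308 had Tph2.

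The pathway around the 4 genes was described in the same cluster through lists chosen with earlier results of these data known. In the list of synthesis and storage, 4 of 9 genes (Tph2, Ddc, Gch1 and Slc18a2) had a level in every library above that of the other neurons in any library. Ddc, the decarboxylase shared with catecholamine neurons, had 1008 and 649 CPM in the control and 1282 and 869 CPM in the DREADD libraries, 95.5 times its level in the other neurons (9.97 CPM). The antisense gene 1700042O10Rik overlaps Ddc on the opposite strand and had 1538 CPM, and the sources used here do not say how strand was treated, so the values of both are uncertain. Slc18a2, the vesicular transporter, had 482 ± 207 CPM against 21 ± 2.22 elsewhere, and Gch1, which begins the synthesis of the hydroxylase's cofactor tetrahydrobiopterin, 112 ± 39.4 against 1.56 ± 0.660. The later cofactor enzymes Pts, Spr, Qdpr and Pcbd1 had ranges that overlapped those of the other neurons, as for Pts with 38.3 ± 19.3 against 24.3 ± 0.764 CPM.

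In the list of reuptake and breakdown, 4 of 5 genes lay above the other neurons in every library. Slc22a3, a low-affinity amine transporter, had 134 ± 68.4 CPM against 1.72 ± 0.532, and Maoa, the second monoamine oxidase, 76.4 ± 47.0 against 19.3 ± 1.69. In DREADD replicate 2, where 1 UMI was 45.7 CPM, Maoa rested on 1 UMI and Slc22a3 on 2. Maob was 49.5 times and Maoa 3.95 times its own level in the other neurons. Slc29a4, another amine transporter, was the exception with 20.1 ± 21.9 against 9.26 ± 0.974 CPM and overlapping ranges.

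Of the 9 transcription factors, Lmx1b, a LIM-homeodomain factor needed for serotonin neurons, lay above the other neurons in every library with 105 ± 50.4 CPM against 15.7 ± 1.66. It rested on 2 UMIs in DREADD replicate 2. Gata2 had 14 UMIs (28.8 ± 21.5 CPM against 0.724 ± 0.259) and Gata3 15 UMIs (31.6 ± 21.3 against 1.75 ± 0.592), and each had a library at 0. Insm1, a factor of newborn neurons, and Foxa2, a factor of midline progenitors, had no UMI in the cluster, where 3 UMIs would be 7.05 CPM, more than their level in other neurons. The presynaptic receptors Htr1b and Htr1d, which inhibit serotonin release, had 57.8 ± 45.4 and 40.0 ± 43.9 CPM against 7.46 ± 0.773 and 2.24 ± 0.635, with overlapping ranges.

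Of the 9 genes of co-transmitters and peptides, 4 lay below the other neurons in every library and 1 above. Slc17a6, the vesicular glutamate transporter of most hindbrain excitatory neurons, had 3 UMIs (2.99 ± 5.98 CPM against 76.2 ± 3.01), Slc6a5, the glycine transporter, 2 UMIs (1.99 ± 3.99 against 83.5 ± 6.05), and Slc32a1 and Gad2, of inhibitory neurons, 9.49 ± 11 against 27.2 ± 1.06 and 24.1 ± 14.9 against 95.7 ± 1.73. In DREADD replicate 2, where 1 UMI was 45.7 CPM, the depth could not show Slc32a1 as lower. The glutamate transporter Slc17a8 had 12 UMIs in 6 nuclei (44.8 ± 63.0 CPM against 2.72 ± 0.699), with a library at 0. Tac1, the precursor of substance P, was above the other neurons in every library with 129 ± 59.1 CPM against 17.5 ± 1.41, on 2 UMIs in DREADD replicate 2. Trh, the precursor of thyrotropin-releasing hormone, had 42 UMIs in 10 of the 43 nuclei and 60.1 ± 60.1 CPM against 0.206 ± 0.0805, with none in control replicate 2.

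Hox genes, whose paralog groups mark position along the hindbrain, had lower sums in the cluster than in other neurons, and of the 16 position genes 10 lay below the other neurons in every library and none above. Of these 10, 6 (En1, En2, Hoxa2, Hoxa4, Hoxc5 and Hoxb8) had no UMI and a level in other neurons under the 7.05 CPM that 3 UMIs would give, so the depth could not show them as lower; the other 4 were Hoxa3, Hoxb3, Hoxc4 and Hoxb5. Groups 2 to 4 summed to 79.7, 90.1, 92.3 and 45.7 CPM in the 4 libraries against 181 to 265 in the other neurons, and groups 5 to 8 to 3.99, 18.0, 10.3 and 0 against 32.9 to 72.6. Hoxa3 had no UMI, which puts it at least 4.18-fold lower than in the other neurons (29.5 ± 5.65 CPM), against a floor of 3 UMIs over the cluster. Of the receptors for signals of AgRP and POMC neurons and for leptin and insulin, Insr had 101.1 ± 37.8 CPM against 124 ± 5.97. Oprm1 had 20.6 ± 23.8 against 106 ± 3.92. Mc4r had 4 UMIs (7.12 ± 9.68 against 2.20 ± 0.672 CPM, with overlapping ranges). Lepr had 2 UMIs, and Npy2r and Npy5r 1 each, at 17.8, 3.48 and 11.3 CPM in other neurons. Npy1r and Mc3r had none, at 7.54 and 0.0509 CPM in other neurons. Npy2r and Mc3r were there under the 7.05 CPM that 3 UMIs would give, so the depth could not show them as lower.

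Oligodendrocyte RNA was counted in the cluster as in other neurons. Mbp, a myelin gene, had 31.9 and 162 CPM in the control and 41.0 and 0 CPM in the DREADD libraries and was highest in control replicate 2, the library with the lowest Tph2; its mean was 58.8 ± 71.2 CPM against 55.4 ± 15.9 in other neurons. The oligodendrocyte markers Mog, Mbp and Mag all had UMIs and summed to 59.8 and 198 CPM in the control and 61.5 and 45.7 CPM in the DREADD libraries, against 78.5 CPM in other neurons. Of the 4 astrocyte markers 3 had UMIs (Slc1a3 had none), with sums of 35.9 and 36.0 against 51.3 and 45.7 CPM, and both ependymal markers were at 0. Their part in the values of the 4 genes was not tested.

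**Figure D3:**
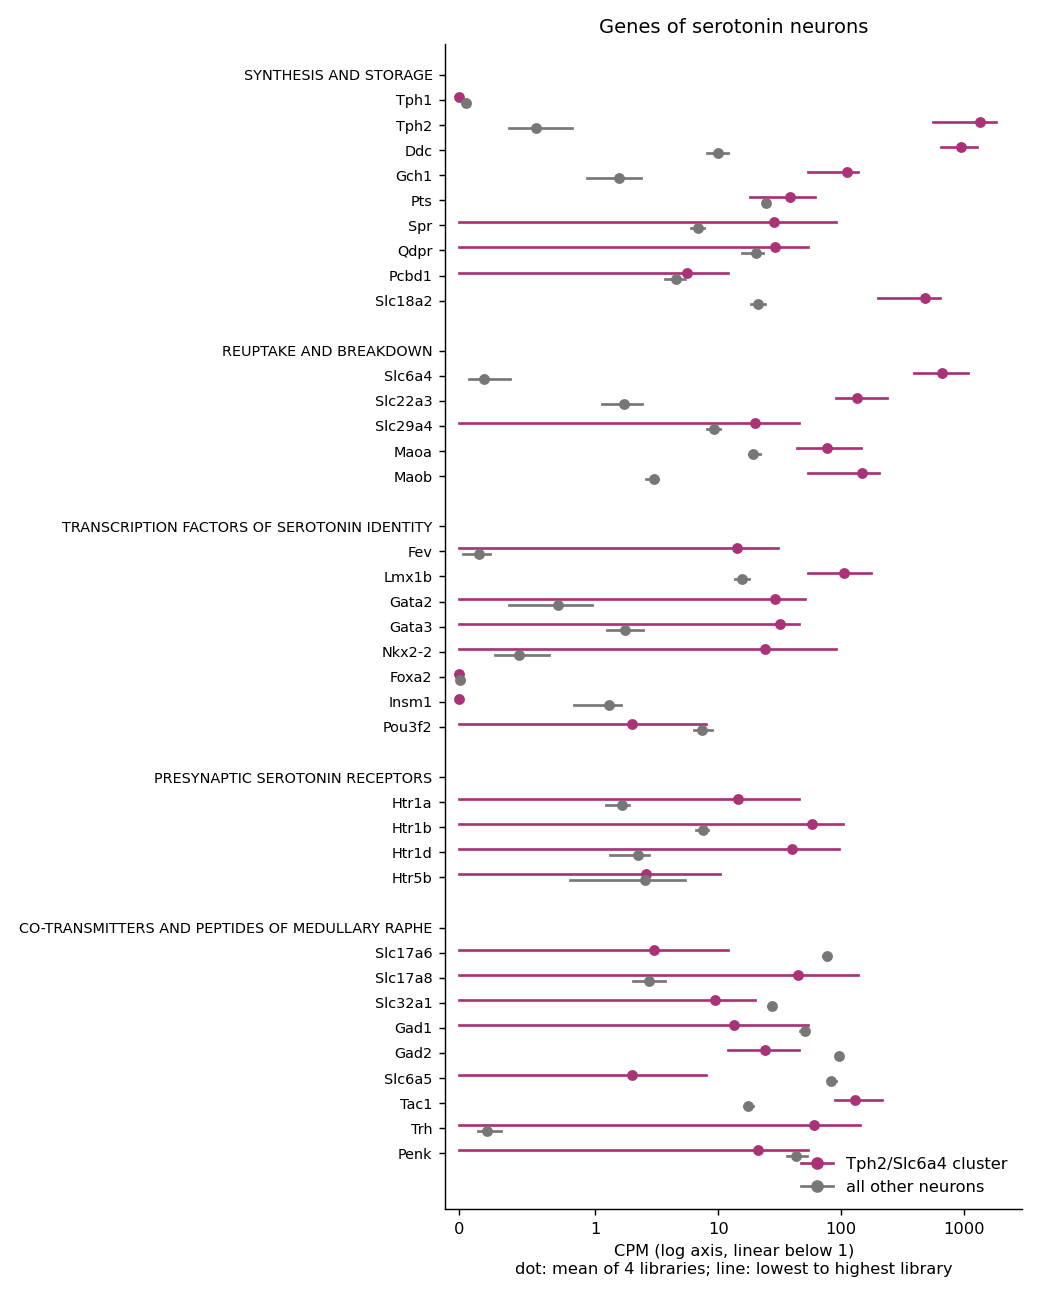
CPM (log axis, linear below 1) of listed genes in the Tph2/Slc6a4 cluster and in all other neurons; dots are means of 4 libraries and lines run from the lowest to the highest library. Tph2, Ddc, Gch1, Slc18a2, Slc6a4, Slc22a3, Maoa, Maob, Lmx1b and Tac1 have lines that lie wholly above those of the other neurons, and Slc17a6, Slc32a1, Gad2 and Slc6a5 wholly below.

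Among 4810 genes detected in 30% or more of the cluster's nuclei, ranked by the ratio of their mean CPM to that in the other neurons, Slc6a4 was 1st and Tph2 2nd, and Maob was 11th; Fev, found in too few nuclei, was not ranked. The genes between were Gm44947, Gchfr, Pappa2, 1700042O10Rik, Gucy2f, Ddc, Slc22a3 and Gch1. The cluster was picked by its Tph2 level, and the authors named it by its strongest markers. High ranks of Tph2 and Slc6a4 therefore follow from how it was picked and named. Gchfr, which binds and regulates the Gch1 enzyme, had 78.1 CPM against 0.453, and Pappa2, a protease of insulin-like growth factor binding proteins, 1081 against 8.29.

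Over the 134 clusters, the gene whose level (log2 of mean CPM + 1) was most like that of Tph2 was Slc6a4, with Pearson's r = 0.69, followed by Tacc1, Gch1, Ddc and Commd2. For Slc6a4 the order was Tph2, Gata2, Pappa2, Notch4 and Slc22a3, and for Fev it was Slc6a4, Ctla2a, Tph2, Gm12648 and Cenpf. Without the serotonin cluster, r of Tph2 and Slc6a4 was 0.20 and that of Fev and Slc6a4 -0.06, while r of Tph2 and Commd2 was 0.38 with and without it. Maob stood apart, with Maoa first (r = 0.50, and 0.47 without the cluster) before Gzmk, Syt5, Mapt and Esm1, and r with Tph2 of 0.13. The clusters share libraries, and most of them held no UMI of Tph2, Slc6a4 or Fev, so these are descriptions. Gzmk and Esm1 overlap each other on opposite strands.

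In the 14 annotated cell types, Maob was mainly a gene of other cells than neurons, while Tph2, Slc6a4 and Fev had 90.5%, 92.6% and 75.0% of their UMIs in neurons. Such shares also depend on how many UMIs of all genes the neurons held. Fev, with 32 UMIs in all, had 0.195 ± 0.123 CPM in neurons and 0.171 ± 0.211 in astrocytes, with overlapping ranges. Of the 3080 Maob UMIs, 14.5% were in neurons. Maob was highest in the choroid plexus, at 324 and 364 CPM in the control and 279 and 212 CPM in the DREADD libraries (295 ± 65.4, SD, n = 4), where 375 of 773 nuclei had it (48.5%). That type was very uneven between libraries, with 2 nuclei in control replicate 1 and 6 in DREADD replicate 1, which gave 3 and 7 Maob UMIs.

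Astrocytes, which held the second highest level among the types, were even between libraries at 50.6 and 62.2 CPM in control and 61.8 and 60.1 CPM in DREADD libraries (58.7 ± 5.44), with Maob in 724 of 4378 nuclei (16.5%). Tanycyte-like cells (45.5 ± 30.8), endothelial cells (41.0 ± 13.3), ependymal cells (30.6 ± 8.28), fibroblasts (24.3 ± 14.0) and mural cells (24.0 ± 5.87) followed, and from astrocytes to mural cells the library ranges of neighbours overlapped. Oligodendrocytes, at 9.93 ± 1.88 CPM, lay below mural cells in every library. All neurons in one sum had 3.63 ± 0.873 CPM and oligodendrocyte precursor cells (OPC) 1.83 ± 1.25, while the 88 nuclei of F13a1.Immune and the 61 of Ms4a4b.Immune had no UMI, which allows up to 3.41% and 4.92% of nuclei with a UMI and does not limit nuclei that express Maob. The serotonin cluster, at 149 CPM, thus lay between choroid plexus and astrocytes, with its control replicate 2 inside the range of the astrocyte libraries.

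**Figure D4:**
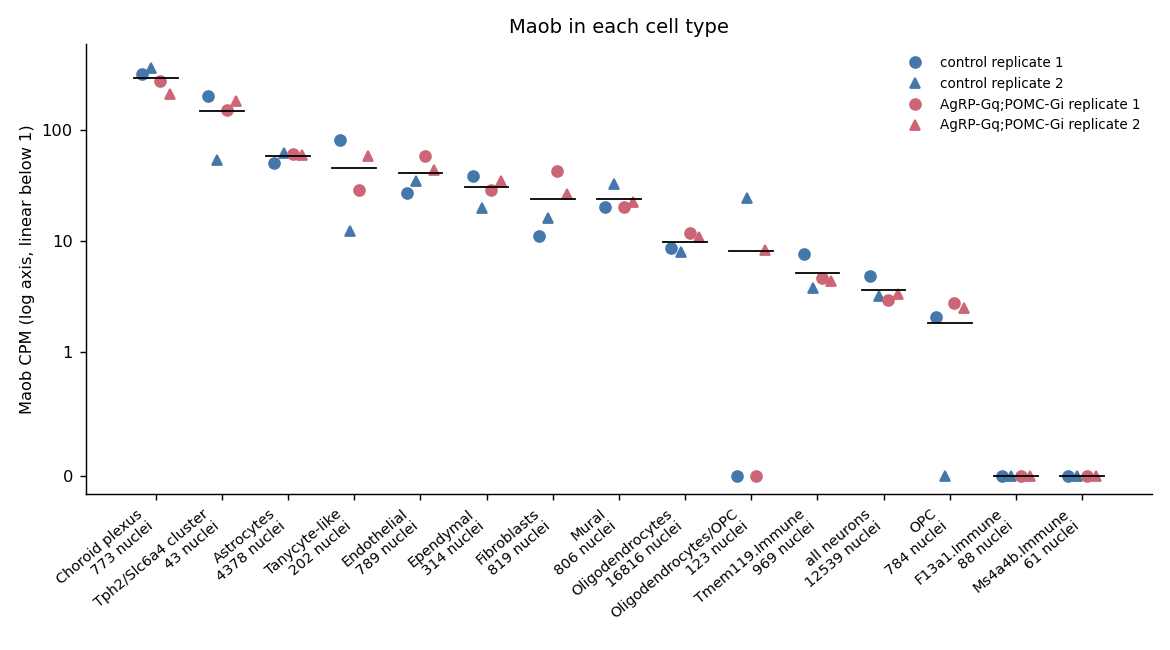
Maob CPM (log axis, linear below 1) in each cell type, in all neurons and in the Tph2/Slc6a4 cluster, ordered by mean, 1 point per library and a line at the mean. Choroid plexus is highest at 295 CPM, the Tph2/Slc6a4 cluster follows at 149 and astrocytes at 58.7, and the mean of all neurons is 3.63.

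Tph2 was also counted in OPC, the type with its highest mean (7.48 ± 4.62 CPM), whose range overlapped that of all neurons. It had 6.20 and 1.49 CPM in the control and 11 and 11.2 CPM in the DREADD libraries, 24 UMIs in 22 of 784 nuclei (2.81%), against 24 of 16816 oligodendrocytes (0.143%) and 12 of 4378 astrocytes (0.274%). Thinned to 800 UMIs, the shares were 0.638% in OPC and 0.0595% in oligodendrocytes. No OPC nucleus had a UMI of Slc6a4 or Fev, which allows up to 0.383% of nuclei with a UMI and sets no limit on nuclei that express them. OPC had a median of 3728 UMIs per nucleus and oligodendrocytes 2460, and free RNA shared by all nuclei was not measured.

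The groups were compared first in the share of neurons that lay in the serotonin cluster. Of the neurons, 0.891% (95% exact binomial interval 0.559 to 1.35) and 0.183% (0.0594 to 0.426) of control replicates 1 and 2 were in the cluster, against 0.298% (0.149 to 0.532) and 0.137% (0.0447 to 0.321) of DREADD replicates 1 and 2. Control replicate 1 stood above the other 3 libraries, which had overlapping intervals. The difference of the group means was -0.319 percentage points (0.537 ± 0.501 in control and 0.218 ± 0.113 in DREADD, SD, n = 2 each; exact two-sided permutation p = 0.667, where 2 against 2 libraries cannot go below 0.333). Without control replicate 1 the difference was 0.0348 percentage points in the other direction. The share also depends on how many neurons a library held. Neurons were 25.4% and 27.2% of the nuclei in control replicates 1 and 2, and 38.0% and 36.5% in DREADD replicates 1 and 2. Over all nuclei, the cluster was 0.226% and 0.0497% of the control and 0.113% and 0.0502% of the DREADD libraries. There the groups overlapped, with a difference of -0.0563 percentage points. Neurons with a Tph2 UMI, in any cluster, were 1.38% and 0.658% in the control and 0.595% and 0.412% in the DREADD libraries (exact two-sided permutation p = 0.333, the smallest possible). With nuclei thinned to 2000 UMIs these shares were 0.904%, 0.259%, 0.33% and 0.167%, and the groups overlapped (exact permutation p = 0.667). Intervals and limits cover counting error only.

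In the summed RNA of all neurons, Tph2 had 12.9 and 1.79 CPM in the control and 4.97 and 1.53 CPM in the DREADD libraries, and Slc6a4 7.0 and 0.875 against 3.12 and 0.425. The groups overlapped, and the order of the libraries was that of the cluster's share for both genes. In edgeR's quasi-likelihood test over 21200 genes, with Benjamini-Hochberg adjustment, the log2 fold change (DREADD over control) was -1.09 ± 0.79 (SE) for Tph2 (adjusted p = 0.856) and -1.06 ± 0.93 for Slc6a4 (adjusted p = 0.865). Fev, with 24 UMIs in all, had 0.261 and 0.182 against 0.309 and 0.0283 CPM (-0.31 ± 0.87, adjusted p = 0.964), and Maob 4.91 and 3.24 against 2.98 and 3.37 CPM (-0.30 ± 0.23, adjusted p = 0.858). Without control replicate 1, Tph2 was at 0.94 and Slc6a4 at 1.10. None of the 4 passed, in a comparison where 0.00472% of genes did, which was 1 gene, Hsd11b2, named after its value was seen. In sums over nuclei, fewer cells of a type and less RNA per cell cannot be told apart.

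Within the serotonin cluster, where CPM are relative to the UMIs of its own nuclei, the fold changes of Tph2 and Slc6a4 had the other sign. Tph2 at 1682 and 1829 CPM in the DREADD libraries lay above both control libraries at 1295 and 559, a log2 fold change of 0.84 ± 0.47 (SE; edgeR, adjusted p = 0.999). As the mean over nuclei of each nucleus's CPM, the groups overlapped, with 1194 and 1036 in the control and 1458 and 892 in the DREADD libraries; 1 nucleus held 30 of the 40 Tph2 UMIs of DREADD replicate 2. Over the 4333 genes tested, 14.3% lay above and 19.6% below in the summed CPM. Slc6a4 overlapped between groups with 0.53 ± 0.50 (edgeR, adjusted p = 0.999), and was at -0.44 without DREADD replicate 1. Maob overlapped too, with 0.06 ± 0.57 (edgeR, adjusted p = 0.999). Fev, with 6 UMIs, was under the minimum of 20 UMIs and was not tested. No gene passed in this comparison (0% of those tested), 130 had an unadjusted p under 0.05, and DESeq2 called none either. Replicate 2 of each group gave 5 nuclei here, with 55480 UMIs in control and 21871 in DREADD.

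In the cluster, the 4 genes of synthesis and storage that could be tested had positive fold changes (median 0.35, against -0.05 over all genes tested), of which Ddc had 0.37 ± 0.45, Slc18a2 0.32 ± 0.51 and Gch1 0.20 ± 0.58. Of reuptake and breakdown, 3 of 4 were positive (median 0.30), with Slc22a3 at 0.94 ± 0.54 and Maoa at -0.14 ± 0.82. None passed the test. Htr1d, an inhibitory autoreceptor, had 95.7 and 54.1 CPM in the control and 10.3 and 0 CPM in the DREADD libraries. These were 24 and 3 UMIs in the control and 1 and 0 in the DREADD libraries. Its log2 fold change was -3.16 ± 1.06 (SE; edgeR, adjusted p = 0.999). Its groups did not overlap, and 19.6% of the 4333 genes tested in the cluster lay below in the same way. The 10 immediate early genes, which rise soon after strong neuronal activity, were the paper's own set. Its authors picked them from a longer list as good indicators of potential activation, so they are no independent sample of such genes. Of these 10, 2 could be tested. Homer1 had 0.47 ± 0.74 and 1700016P03Rik 2.15 ± 0.93 (edgeR, adjusted p = 0.999 for both). The latter had 35.9 and 0 CPM in control and 51.3 and 366 CPM in DREADD libraries. These were 9 and 0 UMIs in the control and 5 and 8 in the DREADD libraries. Fos had 2 UMIs in the whole cluster. The other list genes tested there were Lmx1b (0.82 ± 0.57), Tac1 (0.71 ± 0.53), Trh (-0.95 ± 0.92), Htr1b (0.01 ± 1.01) and Insr (-0.21 ± 0.58), and all had overlapping groups.

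In all neurons, 8 of 9 genes of synthesis and storage were tested and none passed (3 with positive and 5 with negative fold changes, median -0.07 against -0.000922 over all genes), and none of 5 for reuptake and breakdown (median -0.03), 8 transcription factors (median -0.18) or 4 presynaptic receptors (median -0.35). Nor did any of 9 co-transmitters and peptides (median 0.11), 15 position genes (median 0.32), 7 receptors for signals of AgRP and POMC neurons and leptin (median 0.03) or the 10 immediate early genes picked by the authors (median 0.33, 9 with positive fold changes). Lmx1b had 16.2 and 13.8 CPM in the control and 16.4 and 17.8 CPM in the DREADD libraries (0.25 ± 0.11, adjusted p = 0.847) and Gata3 2.79 and 2.04 against 1.35 and 1.30 (-0.80 ± 0.25, adjusted p = 0.847), and neither had overlapping groups. Of the 66 list genes tested, 9 had both DREADD libraries above both controls and 10 had both below, against 11.7% and 25.2% of all genes tested. By list, these were 0 above and 4 below of 8 for synthesis and storage (Pts, Spr, Qdpr and Pcbd1), 1 and 0 of 5 for reuptake and breakdown, 1 and 2 of 8 transcription factors, 0 and 1 of 4 presynaptic receptors and none of the co-transmitters and peptides. They were 2 and 1 of 15 position genes, 1 and 1 of 7 receptors, and 4 and 1 of 10 immediate early genes. Those 4 were Nr4a3 (0.68 ± 0.21), Gem (0.63 ± 0.21), Btg1 (0.27 ± 0.09) and 1700016P03Rik, which had 22.2 and 18.6 CPM in the control and 25.3 and 32.8 CPM in the DREADD libraries (0.56 ± 0.13), with an adjusted p of 0.847 by edgeR for each of them.

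Maob could be tested in 7 cell types other than neurons, choroid plexus having 2 nuclei in control replicate 1, under the minimum of 5, and passed in none with all 4 libraries, against 0.131% of the tests over the 8 cell types in which one of the 4 genes had at least 20 UMIs. In oligodendrocytes it had 8.69 and 8.04 CPM in the control and 12 and 11 CPM in the DREADD libraries. Maob there had a log2 fold change of 0.52 ± 0.18 (SE, edgeR, adjusted p = 0.528), and of 0.67 without DREADD replicate 2. In fibroblasts it had 11.1 and 16.2 against 42.9 and 26.9 CPM (1.24 ± 0.50, adjusted p = 1.00), on 49 UMIs. In these and in endothelial cells (27.3 and 34.9 against 58.2 and 43.7 CPM; 0.63 ± 0.44, adjusted p = 0.976) both DREADD libraries lay above both controls, which 14.8% of the tests over these types did. Astrocytes, with the most UMIs of these types (926), had 0.17 ± 0.14 (adjusted p = 0.821) with overlapping groups, and ependymal, mural and tanycyte-like cells had fold changes from -0.25 to 0.11. Maob is on the X chromosome, and Xist, the RNA of the inactive X, had 507, 319 and 541 CPM in the neurons of the first 3 libraries and 16.2 CPM in DREADD replicate 2; whether the makeup by sex moved Maob was not tested.

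Tph2 had 20 UMIs or more in 2 other types. In OPC, both DREADD libraries lay above both controls (log2 fold change 1.40 ± 0.64, SE; edgeR, adjusted p = 0.818, on 24 UMIs). In oligodendrocytes both lay below, with 0.316 and 0.216 against 0.796 and 0.586 CPM (-1.30 ± 0.63; edgeR, adjusted p = 0.726). Over all tests in the 8 cell types, 14.8% lay above and 19.8% below. Slc6a4 in oligodendrocytes had 0.421 and 0.323 against 0.530 and 0.503 CPM (-0.41 ± 0.60, adjusted p = 0.907). Of 120 neuronal clusters that held 5 nuclei or more in each library, Maob reached 20 UMIs in 2 besides the serotonin cluster, 41: Ryr1/Tfap2b (-0.06 ± 0.88) and 53: Gal/Dkk2 (1.09 ± 1.04), and was not called in either (adjusted p = 0.997 and 0.995), where 0.0301% of all tests were.

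**Figure D5:**
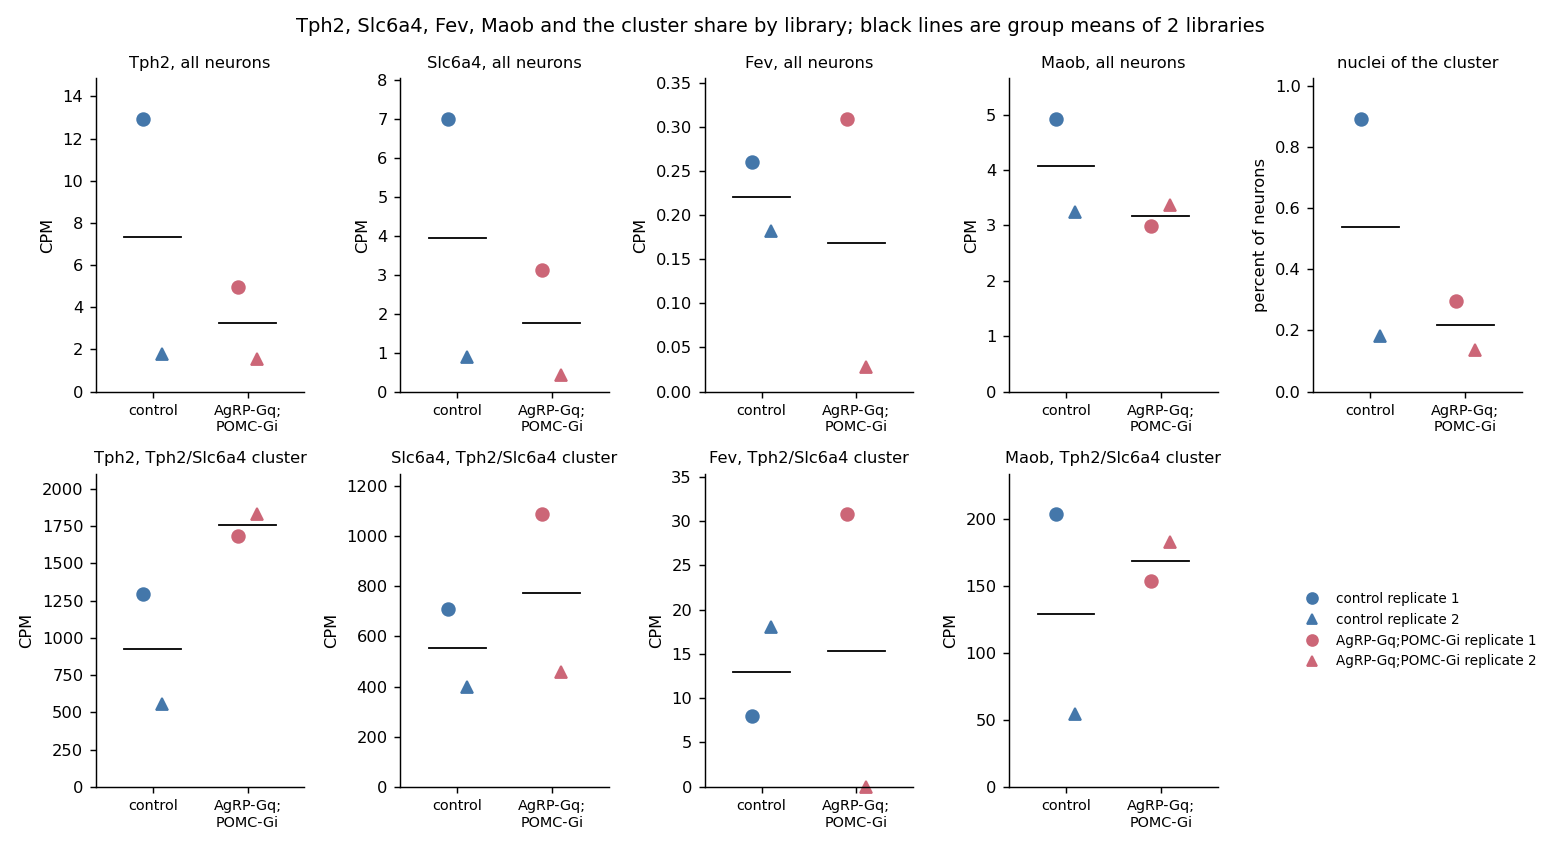
CPM of Tph2, Slc6a4, Fev and Maob per library in all neurons (top) and in the Tph2/Slc6a4 cluster (bottom), and the cluster's share of neurons in percent; points are libraries and lines are group means. In all neurons control replicate 1 is highest for Tph2 at 12.9 CPM, as it is for the share at 0.891%, while in the cluster both DREADD libraries are above both controls for Tph2 in these summed counts, though not in the mean over nuclei.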

How the data were processed

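Nuclei from hindbrain tissue with the AP and NTS were sorted on a DNA dye and sequenced with a 10x 3′ kit. The deposited matrices hold UMI counts per gene and barcode, which the authors made with Cell Ranger 7.0.0 on GRCm38 (mm10); whether intron reads were counted is not given in the sources used here. The authors annotated the nuclei with Seurat 4.3.0, and removed those under 800 UMIs or 500 genes or over 10% mitochondrial UMIs. They also called doublets, and no further doublet call was made here. Nuclei that passed their filter were used with their clusters and cell types, which they named by marker genes, and the deposited percent of mitochondrial UMIs per nucleus served only their filter.

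For each library, UMIs of the nuclei of a cluster or type were added up, and CPM were UMIs per 1e+06 UMIs of the same nuclei. Depth was 48904976 to 53089402 UMIs per library (median per nucleus 3211 to 3502), and 21871 to 250889 UMIs per library in the serotonin cluster. Shares have 95% exact binomial intervals, and a count of 0 allows up to 3 counts. Groups were compared with edgeR 4.0.16 (R 4.3.3) by glmQLFTest with TMM factors, for genes with at least 20 UMIs and units with at least 5 nuclei in every library, with Benjamini-Hochberg adjustment over all genes of the unit and a threshold of 0.05; the script was tested on simulated data. DESeq2 1.42.0, other filters, no TMM factors, a replicate block and leaving out each library were alternatives. Shares were compared by exact permutation over libraries (scipy 1.17.1). Thinning drew 2000 UMIs per nucleus for clusters and 800 for cell types, leaving out shallower nuclei. Correlations over clusters used log2(mean CPM + 1) for genes with at least 100 UMIs in neurons.

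The genes, lists and rules were chosen with earlier results of these data known. Named were the 4 genes, list genes with at least 20 UMIs in the unit described, the 5 genes most like each of the 4, and the 10 genes with the highest ratio in the cluster among those in at least 30% of its nuclei. The other list genes named below that minimum, Hsd11b2 and the left-out barcodes were picked after their values were seen. Values of a few listed genes are not reported here.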

Additional observations from a re-analysis of the deposited data

Results flagged for a closer look

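The fold changes of Tph2 had opposite signs in different cell types, with all libraries of one group on one side. The log2 fold change in OPC minus that in oligodendrocytes was 2.71, as both DREADD libraries lay above both controls in OPC and below both in oligodendrocytes. That in the serotonin cluster minus that in oligodendrocytes was 2.14, as both DREADD libraries lay above both controls there in the summed CPM. As the mean over nuclei, Tph2 in the cluster overlapped between the groups (1194 and 1036 against 1458 and 892 CPM). Over the cell types, both DREADD libraries lay above both controls in 14.8% of tests and below in 19.8%. In the cluster they lay above in 14.3% of genes tested. Neither difference was tested. Tph2 had 24 UMIs in OPC, and 24 in the 16816 nuclei of oligodendrocytes, a type that should lack it.

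Tph2 was also present in barcodes that the authors' quality filter left out and that no comparison used. Of 4842 such barcodes, 33 had a Tph2 UMI (0.682%), above the 0.0620% that a count of 0 allows, with 98 Tph2 UMIs in all. That limit shows only that Tph2 was counted there; among all 39461 nuclei used, 153 had a Tph2 UMI (0.388%), and among the neurons 0.710%. The left-out barcodes carry no cell type here, and a difference between these shares was not tested. Their median was 4270 UMIs, against library medians of 3211 to 3502 in the nuclei used. The shares of left-out barcodes with Tph2 were 1.32% and 0.531% in the control and 0.399% and 0.406% in the DREADD libraries. Slc6a4 was found beside Tph2 in 5 of these barcodes, 3 in control replicate 1 and 2 in DREADD replicate 2, and the one with the most Tph2 had 44 Tph2 and 7 Slc6a4 UMIs among 15248.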

How the results depend on the processing

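Of 136 alternative values for the 19 group comparisons of the 4 genes, 116 kept their direction and side of the threshold, 17 changed direction, 11 of them with a library left out, and 3 came to pass the threshold. Where a library was left out, the lone library of its group was assumed to vary like the others; the cause of each change was not tested. Leaving out control replicate 1 turned Tph2 and Slc6a4 in all neurons, whose fold changes ranged from -2.25 to 0.94 and -3.18 to 1.10, and Maob there (-0.57 to 0.026), and the difference in the cluster's share of neurons (-0.673 to 0.0348 percentage points). Without DREADD replicate 2, Fev in neurons was 0.59. Maob in oligodendrocytes (0.36 to 0.67), 1 of the 3 above, was then 0.67, with a lone DREADD library. In the serotonin cluster Slc6a4 ranged from -0.44 without DREADD replicate 1 to 1.02, and Maob from -0.33 without control replicate 2 to 1.5, while Tph2 stayed positive (0.40 to 1.61). Maob in the cluster was -0.078 with genes in at least 5% of nuclei, -0.085 with no filter and -0.071 without the deepest nucleus, the last chosen after seeing the data. Maob ranged from -0.27 to 0.20 in ependymal, -0.55 to 0.094 in mural and -0.74 to 1.92 in tanycyte-like cells, where it was 0.018 with the 5% filter, 0.16 with no filter and 0.047 with the block.

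The genes called in all neurons were 12 by DESeq2, 0 with the 5% filter and 3 to 2559 with a library left out. In the serotonin cluster they were 1 with the 5% filter, 1 with no filter and 0 to 18 with a library left out. Over the cell types they were 177 by DESeq2, 900 with no filter and 181 to 1797 with a library left out, against 115. The replicate numbers are shared by the groups, but nothing ties them to a batch, and the deviations of same-numbered libraries correlated at 0.0304 over 17236 genes. With the replicate block, 216 genes were called in all neurons, 574 over the cell types and 680 over the neuronal clusters, among them in all neurons Tph2 at -0.88 (edgeR, adjusted p = 0.0227) and Slc6a4 at -1.04 (adjusted p = 0.0327).

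With nuclei thinned, shares fell to 0% for Fev and 31.6% for Maob in the serotonin cluster, to 17.7%, 4.77% and 4.46% for Maob in choroid plexus, astrocytes and tanycyte-like cells and to 0.638% for Tph2 in OPC. With 6 UMIs in the cluster, Fev could not be compared between the groups there.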
